A study of Mus musculus with 16 samples.

Results

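The 8 genes followed here are Klf1, Gata1, Epor, Alas2, Slc4a1, Aqp1, Ermap and Car2, genes of the red cell lineage that were measured in CD4+ lymphocytes sorted from mouse spleen. They were taken from the microarray by gene symbol. They have 10 probes, of which Ermap has 3, and all 8 genes were among the 14688 genes tested. RNA came from 16 samples of male mice 8 to 10 weeks old. Cre control mice carry CD4cre, a Cre recombinase under the CD4 promoter, with no floxed allele named (3 untreated, 3 with nephritis). IKK2 knockout mice carry CD4cre with floxed IKK2fl/fl (3 untreated, 3 with nephritis), and NEMO knockout mice carry CD4cre with floxed NEMO (NEMOfl/f as the labels spell it; 2 untreated, 2 with nephritis). IKK2 and NEMO are subunits of the IkB kinase, which activates NF-kB, and all 16 samples share the Cre transgene. Nephritis (nephrotoxic serum nephritis) was set off by sheep serum against kidney, 2.5 mg per g body weight into the abdomen, and organs were taken on day 10. CD4+ cells were enriched with a kit and then sorted by flow cytometry. The labels do not say whether a sample is a single animal or a pool, and the p-values rest on the variation among samples alone, part of which may be technical.

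Red cells form from precursors that depend on erythropoietin, and in the mouse the spleen can make them under stress, in its red pulp. GATA1 and KLF1 are DNA-binding factors that switch on the red cell programme, through GATA sites and CACCC-type sites respectively. Late precursors fill with haemoglobin and lose the nucleus, and the youngest red cells, reticulocytes, still carry globin and haem synthesis RNA.

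The bases before the gene start are shown for the 3 members called in nephritic Cre controls (Klf1, Epor and Aqp1), for Alas2, which tracked the globins, and for Gata1, which did not follow the others. RefSeq windows on build GRCm38.p6 were searched from 250 bases before to 50 bases after each start, and 6 of the 8 members had one. Slc4a1 and Car2 are named only. Each line gives the 150 bases before the start, 5' to 3' on the gene's strand. Capitals mark GATA hexamers (AGATAA or TGATAA on either strand) and the octamer CCNCNCCC on either strand, where N is any base and matches may overlap.
Klf1, chr8:84901832-84901981, plus strand: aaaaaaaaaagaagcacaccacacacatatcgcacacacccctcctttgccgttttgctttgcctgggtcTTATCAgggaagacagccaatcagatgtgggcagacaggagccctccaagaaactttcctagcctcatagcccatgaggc
Epor, chr9:21963577-21963726, minus strand: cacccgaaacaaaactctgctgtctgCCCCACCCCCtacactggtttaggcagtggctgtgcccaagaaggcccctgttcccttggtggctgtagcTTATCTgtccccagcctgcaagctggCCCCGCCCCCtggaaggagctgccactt
Aqp1, chr6:55336149-55336298, plus strand: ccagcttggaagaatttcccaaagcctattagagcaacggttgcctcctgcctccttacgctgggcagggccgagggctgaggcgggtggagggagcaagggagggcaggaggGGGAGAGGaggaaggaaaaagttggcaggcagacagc
Alas2, chrX:150547267-150547416, plus strand: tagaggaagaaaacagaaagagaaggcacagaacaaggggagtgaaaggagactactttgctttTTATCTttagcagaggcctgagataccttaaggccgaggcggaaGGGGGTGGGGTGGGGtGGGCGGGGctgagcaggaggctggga
Gata1, chrX:7967911-7968060, minus strand: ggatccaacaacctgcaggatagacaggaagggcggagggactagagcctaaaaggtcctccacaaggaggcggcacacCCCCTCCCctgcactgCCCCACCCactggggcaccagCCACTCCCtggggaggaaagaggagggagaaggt

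A GATA hexamer lay in 4 of the 6 windows, those of Klf1, Epor, Alas2 and Ermap, against 18.6% of 32851 windows of this length in the table. Counted from the gene start, it began at -80 in Klf1, -54 in Epor, -86 in Alas2 and -67 in Ermap. The octamer CCNCNCCC lay in the windows of Gata1, Epor, Alas2 and Aqp1, again 4 of 6, against 49.5% of all windows, and 5.74% of all windows held both kinds. Gata1 and Aqp1 had no GATA hexamer in the window. The 2 regulators thus differ: the Klf1 window held a GATA hexamer alone and the Gata1 window 3 copies of the octamer alone. A match is a run of letters and not a shown binding site.

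Levels below are log2 intensities with each array's 75th percentile set to 0, so 1 unit is a doubling and a probe's levels can be compared between arrays but not with another probe. T cell markers read high on every array, with a list mean of 6.33 to 6.71, and Cd4 read 5.86 to 6.19. Between 48.8% and 59.8% of probes were well above background per array, and no spot was saturated. Arrays sat on 3 slides: slide 1 held all nephritic Cre control and IKK2 arrays and untreated IKK2 replicates 1 and 2, slide 2 held the untreated Cre controls and IKK2 replicate 3, and slide 3 held all NEMO arrays. NEMO against any other genotype therefore cannot be told apart from the slide. The net intensity of negative control spots ran from 40.5 to 45.98 on the first slide, from 19.5 to 22.4 on the second and from 16.4 to 17.7 on the third. Probes of the targeted genes are no check of the labels, since the sources used here do not place them relative to the deleted part. Ikbkb, which encodes IKK2, read 3.06 ± 0.22 (SD, n = 3) in untreated IKK2 knockout against 3.30 ± 0.0090 in Cre control (adjusted p = 0.162, limma). With nephritis it differed by -0.34 (adjusted p = 0.134), and in NEMO knockout it was lower than in Cre control by -0.35 and -0.48 without and with nephritis (adjusted p = 0.0371 and 0.00654). Ikbkg, which encodes NEMO, read -0.84 ± 0.14 (n = 2) in untreated NEMO knockout against -0.70 ± 0.17 (n = 3; adjusted p = 0.337, limma). With nephritis it was lower in NEMO knockout by -0.34 (adjusted p = 0.0196), and in untreated IKK2 knockout it was higher than in Cre control by 0.68 (adjusted p = 0.00152). Within Cre control nephritis the 3 arrays were unlike each other: replicate 3 had the highest red cell signal of all 16 arrays, replicate 1 had Alas2, Slc4a1 and the adult globins near the untreated level, and replicate 2 lay at -67.4 on the third principal component, where the other 15 arrays lay between -11.5 and 19.4.

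With nephritis in Cre controls Klf1, Epor and Aqp1 rose, and 5 of the 8 members lay higher on every nephritic array than on every untreated one. The 3 calls of 8 compare with 2.56% of all genes called higher (4.02% in either direction), and the 5 of 8 with 20.8% of all genes. Klf1 was well above background on no untreated array of any genotype, so it passed the filter of at least 2 arrays through nephritic arrays alone. Its call and its place in these counts thus add no independent support. The median difference of the members was 2.94 (2.70 with Klf1 at its bound), against 0.10 over all genes. The plot of every probe by array shows how far the 3 nephritic Cre control arrays lie apart.

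**Figure D1:**
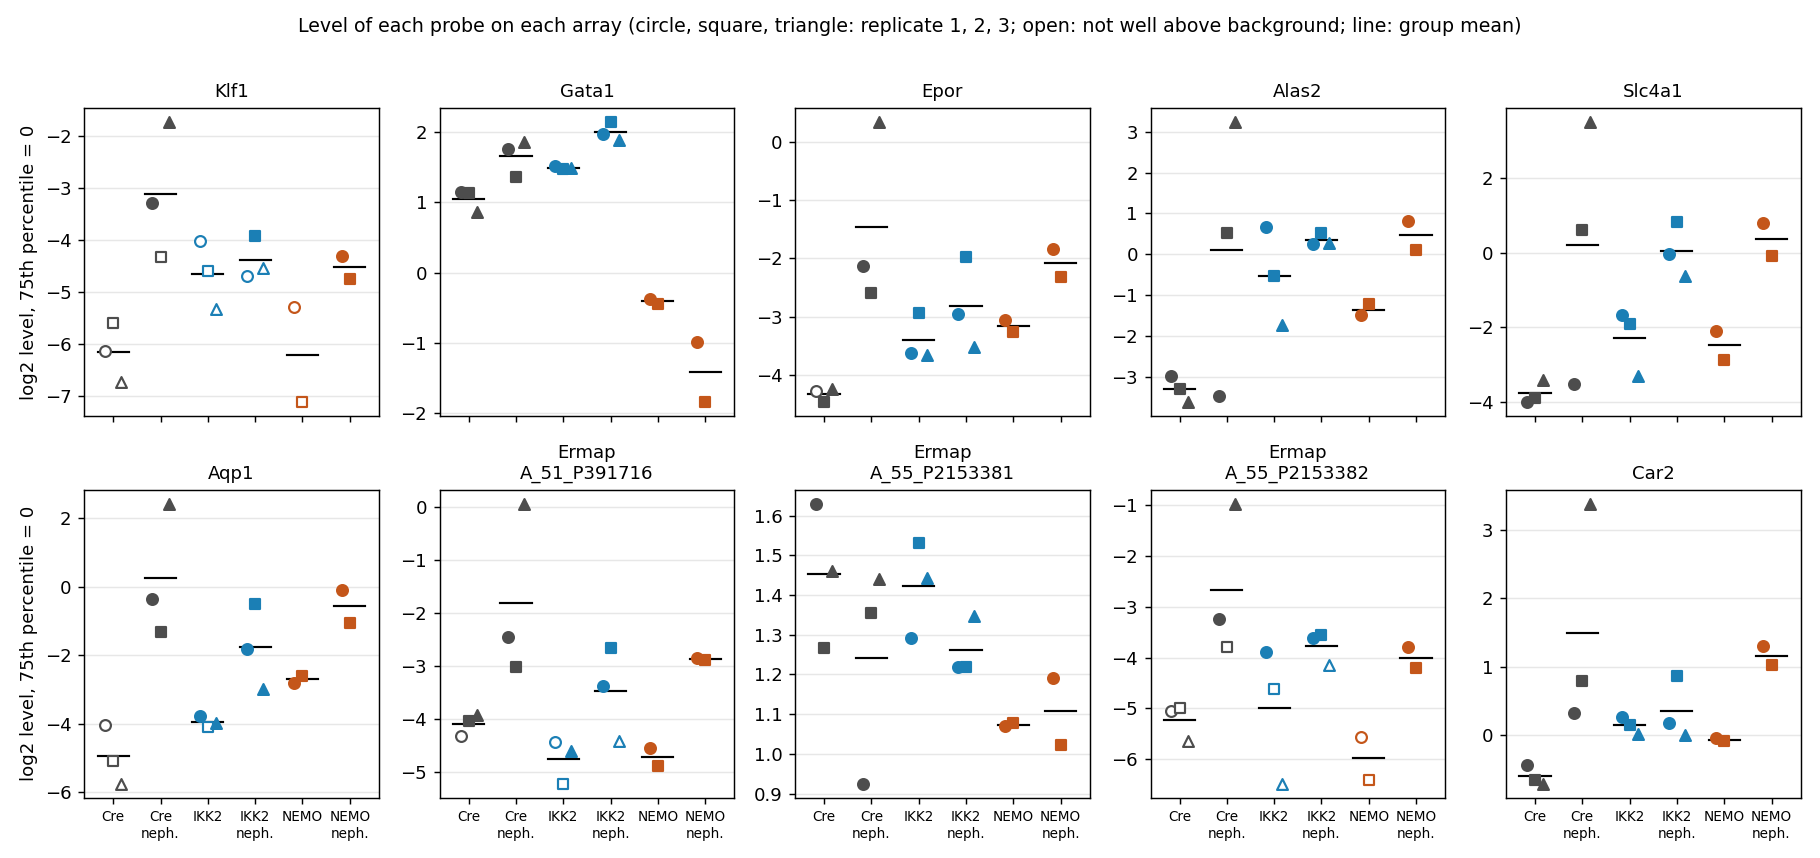
Log2 level (75th percentile of the array at 0) of all 10 probes on each of the 16 arrays, by group; black lines are group means and open symbols mark spots not well above background. Nephritic Cre control replicate 3 is the highest array for all probes but Gata1 and the second Ermap probe, and Gata1 lies below 0 on the 4 NEMO arrays alone.

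Klf1, the factor that drives adult globin and red cell membrane genes, read -6.13, -5.59 and -6.73 on untreated Cre control replicates 1 to 3. None of these was well above background. The nephritic replicates read -3.29, -4.33 and -1.73, of which the first and the third were well above background. No nephritic value reached down to an untreated one. The mean rose from -6.15 ± 0.57 to -3.12 ± 1.31 (SD, n = 3), at least 5.80-fold with the untreated group taken at its detection limit (fitted difference 3.03, SE 0.63, limma adjusted p = 0.0289). "At least" folds set the brighter group's mean against, per untreated array, the higher of the dim probe's own value and the lowest signal well above background. They are bounds for the processed intensities alone. Where a probe's own values set the limit on every untreated array, the bound is the fitted difference, and a plain fold is given. With normexp background correction the differences in Cre controls were smaller, at 0.67 for Klf1 and 2.65 for Aqp1. The brighter mean of Klf1 also includes replicate 2, which was not well above background.

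Epor, the erythropoietin receptor, read -4.26 (not well above background), -4.45 and -4.23 untreated and -2.13, -2.58 and 0.33 with nephritis. All nephritic arrays were above all untreated ones, and replicate 3 stood well over the other 2. The rise was 2.85 (SE 0.62, limma adjusted p = 0.0306). Aqp1, the water channel of red cells, which also marks some vessels, read -4.04, -5.08 and -5.76 untreated, none of them well above background. Its nephritic arrays read -0.35, -1.31 and 2.42, all measured. Aqp1 rose by a fitted difference of 5.21 (37.1-fold, SE 0.85 in log2, limma adjusted p = 0.0130). This was the largest difference among the 8 members in any of the 3 nephritis comparisons. The fold is an estimate and no lower limit, since no untreated value was well above background.

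Alas2, the first and rate-limiting enzyme of red cell haem synthesis, split the nephritic Cre controls. It read -2.96, -3.28 and -3.61 untreated and -3.46, 0.53 and 3.23 with nephritis. Replicate 1 lay inside the untreated range while replicates 2 and 3 lay far above it, and the difference of 3.39 (SE 1.22) did not pass (limma adjusted p = 0.124). Slc4a1, the band 3 anion exchanger of the red cell membrane, had the same split, with -4.01, -3.91 and -3.42 untreated and -3.53, 0.62 and 3.52 with nephritis (difference 3.98, SE 1.27, limma adjusted p = 0.0936). Car2, carbonic anhydrase II, read -0.44, -0.66 and -0.71 untreated and 0.33, 0.79 and 3.38 with nephritis, with no overlap (difference 2.10, limma adjusted p = 0.0639). Gata1 read 1.15, 1.14 and 0.86 untreated and 1.76, 1.37 and 1.86 with nephritis, again with no overlap (0.61, limma adjusted p = 0.0868).

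Ermap, an erythroid membrane protein of the butyrophilin-like family, gave different answers by probe. Probe A_51_P391716 read -4.33, -4.04 and -3.93 untreated and -2.45, -3.02 and 0.06 with nephritis, a difference of 2.29 (SE 0.65, limma adjusted p = 0.0765 over all probes). Probe A_55_P2153382 was not well above background on any untreated array. By the fitted difference it was 5.88-fold higher with nephritis, measured on 2 of 3 arrays (limma adjusted p = 0.0731 over all probes). The brightest probe, A_55_P2153381, which stands for the gene in the counts, read between 0.92 and 1.63 on all 16 arrays and differed by -0.21 (limma adjusted p = 0.335). Over the 16 arrays the 2 dim probes correlated with each other at r = 0.85 and with the bright one at r = -0.15 and r = -0.04, as a description over arrays that share groups and slides.

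These calls depend on the arrays and the slide. Untreated and nephritic Cre controls sat on different slides, and with slide as a block, which the IKK2 arrays alone make possible, the differences were 2.02 for Klf1 (adjusted p = 0.560), 2.47 for Epor (0.477) and 5.18 for Aqp1 (0.267), with no member and 2 of all genes called. Without nephritic replicate 1, 6 members were called (Alas2, Slc4a1 and Car2 joined). Without replicate 3, Klf1 lost its call (2.34, adjusted p = 0.0615), Car2 gained one (1.16, adjusted p = 0.0383) and Epor was 1.96 (adjusted p = 0.0373). Without untreated replicate 1 or untreated replicate 3, Aqp1 alone was called, at 5.67 (adjusted p = 0.0302) and 4.81 (adjusted p = 0.0406). Normexp background correction gave 0.67 for Klf1, 1.35 for Epor and 2.65 for Aqp1, and the authors' deposited log2 values gave 1.02, 1.83 and 3.46, with Aqp1 alone called in both. Aqp1 kept its call in 15 of 17 alternatives, Klf1 in 8 of 16 and Epor in 7 of 17.

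On nephritic Cre control replicate 1 the members were uneven. Against the mean of the 3 untreated Cre controls it was higher by 2.86 for Klf1, 4.61 for Aqp1, 2.18 for Epor and 0.93 for Car2. On that same array Alas2 differed by -0.17, Slc4a1 by 0.25, Gata1 by 0.71 and the bright Ermap probe by -0.53. The membrane genes Rhd, Kel, Tmod1, Tspan33 and Cldn13, named after their values were seen, were higher by 2.80, 2.63, 2.14, 1.68 and 1.02, unlike the membrane gene Slc4a1. Tal1 and Gfi1b, further red cell transcription factors, were higher by 3.16 and 2.49. The 5 adult globin genes differed by -0.83 to -0.41 there, while on replicate 3 they were higher by 4.99 to 6.21. The adult globin copies are near-identical and their probes may share targets. Of the 71 other red cell genes tested, 13 stood at least 2-fold above the untreated mean on replicate 1, 22 on replicate 2 and 36 on replicate 3. Untreated knockout arrays gave 13 to 15 such genes in IKK2 and 17 on each NEMO array, no fewer than nephritic replicate 1. These counts are a description with no test, and the share of all genes is not given here. In bulk RNA, fewer cells of a type and less RNA per cell cannot be told apart.

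**Figure D2:**
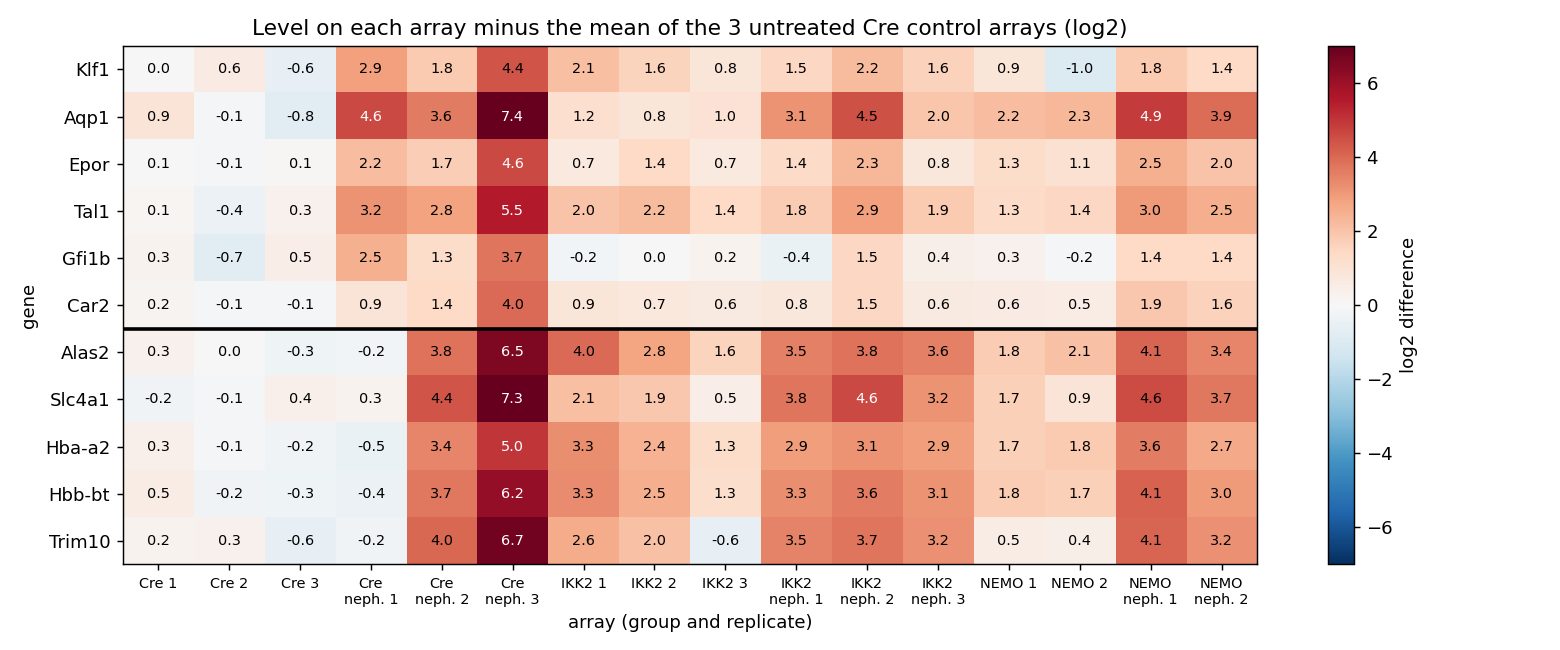
Log2 level of 11 red cell genes on each array minus the mean of the 3 untreated Cre control arrays. The genes were chosen after their values were seen. On nephritic Cre control replicate 1 the 6 genes above the black line are higher by 0.93 to 4.61, and the 5 below it, among them Alas2 and Slc4a1, lie within 0.5 of the untreated mean.

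The other red cell lists moved partly with the members in Cre controls. Of 11 transcription factors 4 rose, led by Tal1 (14.2-fold as fitted, adjusted p = 0.0107), Nfe2 (3.05) and Gfi1b (2.51). Of 19 membrane and skeleton genes 4 rose, with the blood group genes Rhd (at least 32.9-fold, adjusted p = 0.0283) and Kel (at least 10.8-fold, adjusted p = 0.0277) in front, followed by Tspan33 (4.16). Of 4 iron uptake genes, Tfr2, transferrin receptor 2, rose by 2.68 (adjusted p = 0.0121). Of 9 Epo and Kit signalling genes Lyn and Kit rose, Kit by 1.79. Of 10 red cell enzymes and maturation genes Blvrb, a biliverdin reductase, rose by 0.88 (all limma). For these counts the share of all genes called higher was 2.56%. Of the 19 membrane genes 11 were above background on no untreated Cre control array. A gene that passed the filter through nephritic arrays alone adds no independent support by its call. Untreated and nephritic Cre controls sat on different slides, which the fit behind these calls does not take into account. None of 6 globins and none of 12 haem synthesis genes passed, though 6 and 10 of them had an unadjusted limma p under 0.05, against 24.7% of all genes. The 6 include Hbb-bh1, an embryonic globin, which read lower on all 3 nephritic arrays (difference -0.58). The globins' median difference was 2.94 and Hba-a2 ranged from 4.36 on replicate 1 to 9.80 on replicate 3, with 4.57 to 5.14 untreated.

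Markers of other cells moved on the same arrays. Higher calls were found for 2 of 6 plasma cell, 1 of 11 macrophage, 1 of 8 neutrophil and monocyte, 2 of 8 mast cell, basophil and eosinophil, 1 of 7 stem and progenitor and 3 of 12 cell cycle genes. These were Mzb1 and Xbp1, Adgre1, Lyz2, Mcpt8 and Cma1, Meis1, and Bub1, Ccnb2 and Ube2c, named after their values were seen. Over all genes 2.56% were called higher. The different slides of untreated and nephritic Cre controls limit these calls as well. Elane, a neutrophil granule gene, fell by 0.81 (limma adjusted p = 0.0130). No limma call was made among 9 T cell, 7 CD8 and NK, 6 dendritic, 13 platelet and 7 endothelial genes. Of these 0, 4, 3, 1 and 2 had an unadjusted p under 0.05, against 24.7% of all genes. The macrophage list mean was -4.44 on nephritic replicate 1 and -2.17 and -2.35 on replicates 2 and 3, against -4.73 to -3.23 untreated. The mast cell, basophil and eosinophil mean was highest on replicate 1, at -1.63, against -3.87 and -2.86 on the other 2 and -4.85 to -4.46 untreated. The neutrophil and monocyte mean was 0.46 on replicate 3 and -1.68 and -1.75 on the other 2, against -3.34 to -2.62 untreated. The B cell mean was -2.91, -2.01 and -1.99 on the nephritic replicates, against -3.59 to -3.01 untreated. All 3 nephritic arrays were above all untreated ones for the mast cell, neutrophil and B cell lists. Of these lists 2 macrophage, 3 B cell and 1 mast cell, basophil and eosinophil genes were above background on no nephritic Cre control array. The part of these cells in the members' levels was not tested.

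**Figure D3:**
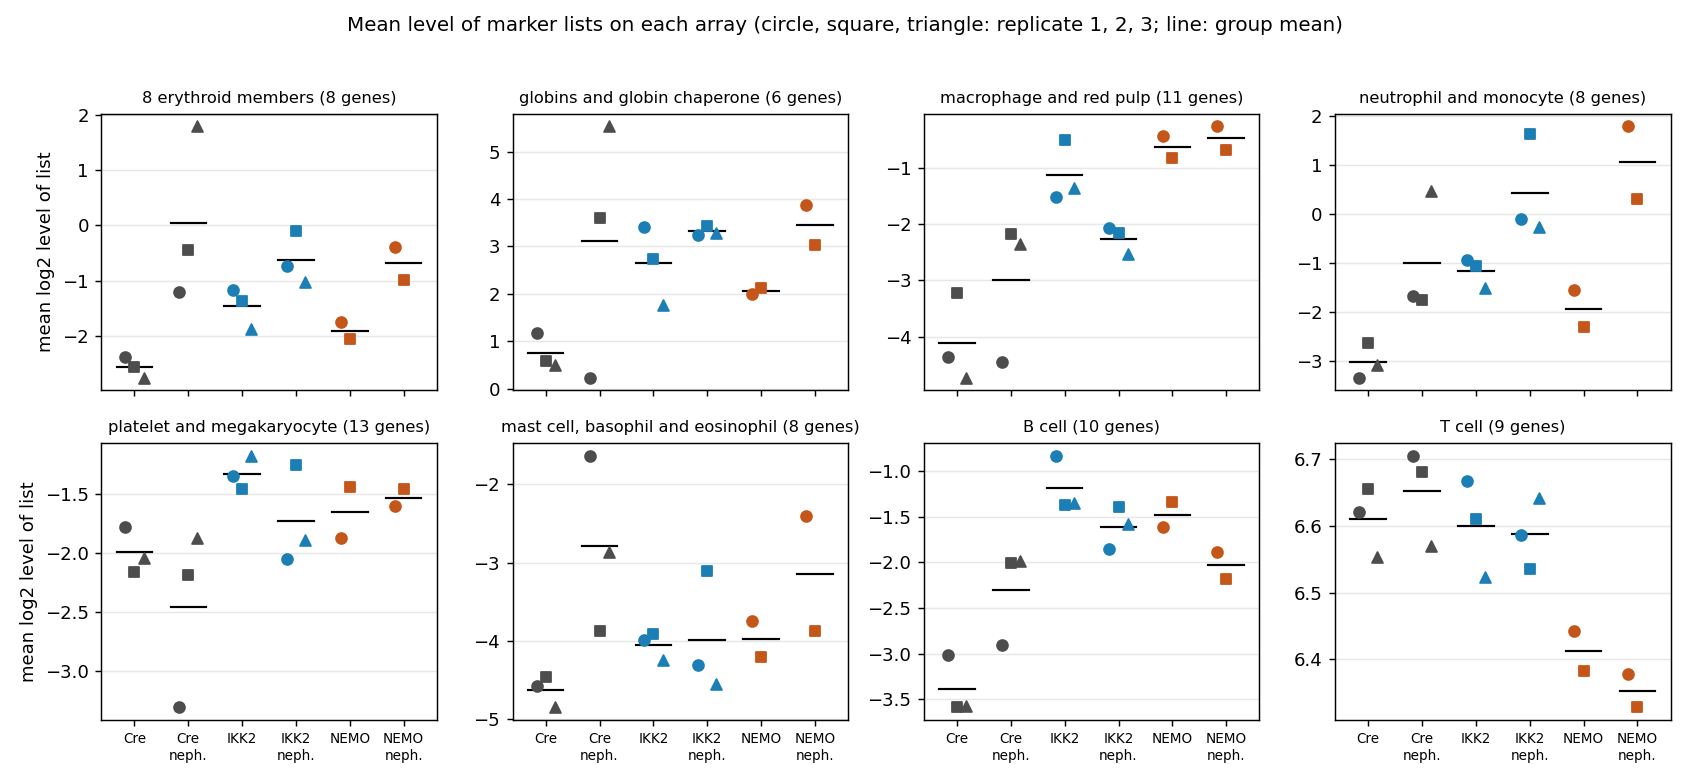
Mean log2 level of the 8 members, the globins and 6 marker lists of other cells on each array; black lines are group means. T cell markers lie between 6.33 and 6.71, while the members and globins are highest on nephritic Cre control replicate 3, where the list means are 1.81 and 5.54.

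In IKK2 knockout cells no member was called with nephritis (limma, with 0.443% of all genes called), and 2 of the 8, Gata1 and Aqp1, had an unadjusted p under 0.05, against 14.9% of all genes. Slc4a1 read -1.66, -1.91 and -3.31 untreated and -0.03, 0.83 and -0.63 with nephritis, so every nephritic array was higher (difference 2.35, SE 1.27, adjusted p = 0.431). Aqp1 went from -3.77, -4.11 and -3.97 to -1.81, -0.50 and -3.002, also without overlap (2.18, SE 0.85, adjusted p = 0.255). With Gata1 these made 3 of 8 members higher on every array, against 9.02% of all genes. Alas2 varied with the array, at 0.67, -0.53 and -1.72 untreated and 0.26, 0.53 and 0.27 with nephritis. Untreated replicate 3, lowest for Alas2, Slc4a1, Klf1, Car2 and, by little, Epor, was also the one on slide 2. Within slide 1 Alas2 differed by 0.28 and Slc4a1 by 1.85. Klf1 (-4.02, -4.60 and -5.32 to -4.69, -3.93 and -4.53), Epor (-3.61, -2.93 and -3.65 to -2.95, -1.97 and -3.52) and Car2 (0.27, 0.14 and 0.02 to 0.18, 0.86 and 0.01) overlapped between the groups.

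The other red cell lists gave no call in IKK2 knockout nephritis apart from Socs3 (0.71, limma adjusted p = 0.0192) and Pim1 (0.64, adjusted p = 0.0375). Both are cytokine-induced genes of the signalling list, the former an inhibitor of cytokine receptor signalling and the latter a kinase. The globin median difference was 0.74, against 0.01 over all genes. Beside this, 10 of 11 macrophage genes lay lower on every nephritic array without passing the test. The share of all genes lower on every array is not given here, so this count has no background. The macrophage list mean lay between -1.51 and -0.51 untreated and between -2.54 and -2.08 with nephritis. The neutrophil and monocyte mean lay at or below -0.93 untreated and reached 1.64 with nephritis. Their part in the members' levels was not tested.

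With NEMO knocked out, nephritis gave no call among the members either (limma, with 0.402% of all genes called), and Gata1 alone had an unadjusted p under 0.05, against 6.38% of all genes. With 2 arrays a group, 6 of the 8 members were higher on both nephritic arrays than on both untreated ones, against 19.6% of all genes, and Gata1 was lower on both, against 26.5% of all genes. Slc4a1 went from -2.09 and -2.87 to 0.80 and -0.07 (2.85, SE 1.56, adjusted p = 0.881). Aqp1 went from -2.80 and -2.61 to -0.09 and -1.06 (2.13, SE 1.04, adjusted p = 0.822). Alas2 went from -1.49 and -1.22 to 0.81 and 0.12, and Car2 from -0.04 and -0.09 to 1.29 and 1.03. Epor went from -3.05 and -3.25 to -1.85 and -2.32. Klf1 went from -5.29 and -7.11, not well above background, to -4.31 and -4.75. This was at least 2.19-fold on the processed intensities, but the difference was 0.12 with normexp background correction. Ermap probe A_51_P391716 went from -4.55 and -4.89 to -2.85 and -2.88, while the bright probe stayed between 1.02 and 1.19. All 6 globins and 13 of 19 membrane genes were higher on both nephritic arrays, with none called and medians of 1.54 and 1.98 against -0.02 over all genes. Of the 19 membrane genes 10 were above background on no untreated NEMO array, so their differences have no measured lower side. The neutrophil and monocyte list mean was 1.80 and 0.31 on these arrays and -1.55 and -2.31 untreated, and its part in the members' levels was not tested.

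**Figure D4:**
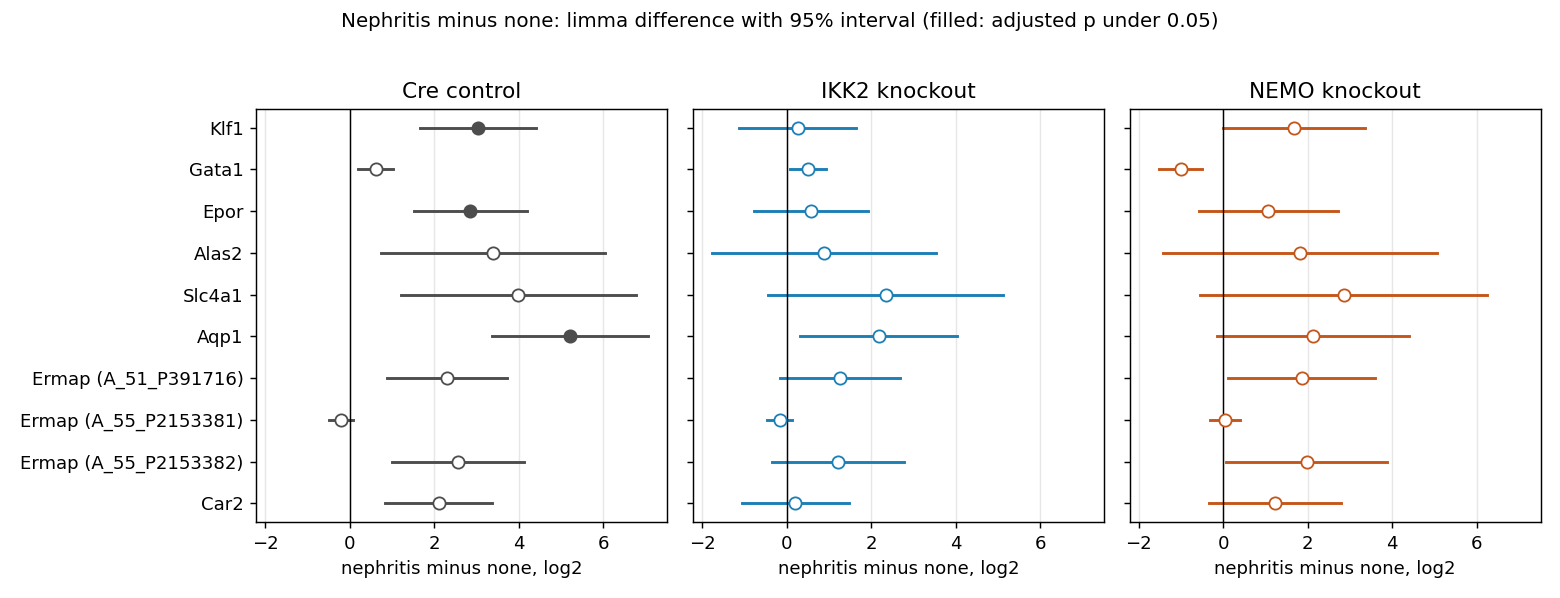
Nephritis minus none in log2 units for each of the 10 probes in Cre control, IKK2 knockout and NEMO knockout, as the limma estimate with its 95% interval; filled points passed the adjusted threshold. Klf1, Epor and Aqp1 in Cre control are the 3 filled points, and Gata1 is the one probe with its interval below 0 in NEMO knockout.

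The difference between genotypes in the response to nephritis was tested directly. Against Cre control, no member was called for IKK2 knockout (1.14% of all genes called) or NEMO knockout (0.266%), and 4 and 2 members had an unadjusted limma p under 0.05, against 19.9% and 10.1% of all genes. For Epor, the IKK2 response minus the Cre response was -2.27 (95% interval -4.17 to -0.37, adjusted p = 0.180). For Aqp1, dim in untreated Cre controls, the interval was -5.66 to -0.41 (adjusted p = 0.193), and for Alas2 it was -6.26 to 1.25. Both tests share the Cre control arrays. A call in Cre controls and none in a knockout is thus not a shown difference between them.

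Gata1 set itself apart from the other members. It lies on the X chromosome and encodes the founding factor of the red cell, megakaryocyte, mast cell and eosinophil lines. Its probe was well above background on all 16 arrays. Gata1 has no other probe here to set beside it, and which cells its signal came from was not tested. Without nephritis it read 1.52, 1.47 and 1.49 in IKK2 knockout and -0.37 and -0.44 in NEMO knockout, and with nephritis it read 1.98, 2.14 and 1.88, and -0.99 and -1.84. The groups ran, from the highest mean, IKK2 nephritis (2.001 ± 0.13, SD), Cre nephritis (1.66 ± 0.26), IKK2 (1.49 ± 0.024), Cre (1.05 ± 0.16), NEMO (-0.41 ± 0.050) and NEMO nephritis (-1.41 ± 0.61). Cre nephritis and untreated IKK2 overlapped, and the other neighbours in this order did not.

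Gata1 was lower in NEMO knockout than in Cre control by -1.46 without nephritis (SE 0.21, adjusted p = 2.0e-04, limma) and by -3.08 with it (SE 0.21, adjusted p = 1.0e-06). Against IKK2 knockout the differences were -1.90 (adjusted p = 4.6e-05, limma) and -3.42 (adjusted p = 4.9e-07). It was the only member called in each of these 4 comparisons, where 22%, 29.6%, 19.9% and 27.2% of all genes were called lower and 43%, 48.3%, 35.3% and 46.1% in either direction, so 1 of 8 lies below that background. The call held in every alternative that could be fitted (15, 15, 14 and 14), but the NEMO arrays had a slide of their own. Gata1's response to nephritis in NEMO knockout was -1.01 (SE 0.23, adjusted p = 0.156), and -1.62 relative to that in Cre control (SE 0.30, adjusted p = 0.0602). Without NEMO nephritis replicate 1 both passed, at -1.44 (adjusted p = 0.0100) and -2.05 (adjusted p = 0.0054). Cell cycle list means were 2.27 to 2.72 on NEMO arrays and -0.72 to 0.74 on the others, and their link to Gata1 was not tested.

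Between untreated IKK2 knockout and untreated Cre control no member passed (limma, 14.5% of all genes called; 3 of 8 at an unadjusted p under 0.05, against 30.0% of all genes). On every array 6 members read higher in the knockout, against 18.9% of all genes: Klf1, Gata1, Epor, Alas2, Slc4a1 and Car2. Klf1 was not well above background on any of these 6 arrays, so its order there is no measured difference. The difference was 2.76 for Alas2 (SE 1.22, adjusted p = 0.151) and 1.48 for Slc4a1 (SE 1.27, adjusted p = 0.471). Within slide 2, where IKK2 replicate 3 sat beside the 3 Cre controls, the difference was 1.56 for Alas2 and 0.47 for Slc4a1, with 1 IKK2 array. When these 2 groups alone were fitted, Alas2 (adjusted p = 0.0496) and Car2 (0.74, adjusted p = 0.0256) were called, with 6.25% of all genes called in that fit. In the same comparison 10 of 11 macrophage, 9 of 10 B cell and 10 of 12 cell cycle genes rose. Kit (3.12) and Lyn (3.56) rose in the signalling list, and Lmo2 (2.28), Nfe2 (2.07) and Bcl11a (2.003) were the largest of 4 calls among the transcription factors, while Hbb-bh1 fell by 0.79 (limma adjusted p = 0.0256).

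Untreated NEMO knockout had 5 of 8 members higher than untreated Cre control on every array, against 30.8% of all genes. None of the 5 passed in the fit over all groups, where 43% of all genes were called, with Aqp1 nearest at 2.25 (SE 0.95, limma adjusted p = 0.0748). When these groups alone were fitted, Alas2, Slc4a1, Aqp1, Epor and Car2 were called higher, with 39.3% of all genes called in that fit. With nephritis the Alas2 means were 0.10 ± 3.37 in Cre control, 0.35 ± 0.15 in IKK2 knockout and 0.46 ± 0.49 in NEMO knockout, and for Slc4a1 0.20 ± 3.54, 0.06 ± 0.73 and 0.36 ± 0.62. The spread of the 3 nephritic Cre controls exceeded all differences between these means. IKK2 knockout against Cre control with nephritis gave no call among the members (2.59% of all genes called), and Aqp1's difference was -2.02 (95% interval -3.88 to -0.17, limma adjusted p = 0.238).

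Apart from Gata1 and the bright Ermap probe, each member correlated with the mean of the others over the 16 arrays. They did not move together on every array, since nephritic Cre control replicate 1 split them. Alas2 correlated with Klf1 at r = 0.66 and with Aqp1 at r = 0.68. Pearson's r of each member with the mean of the other 7 was 0.93 for Car2, 0.90 for Epor, 0.89 for Slc4a1, 0.83 for Klf1 and 0.82 for both Aqp1 and Alas2. For Gata1 it was 0.07 and for Ermap's bright probe -0.08. Alas2 followed the alpha globin Hba-a2 at r = 0.99 and Slc4a1 at 0.92, while Klf1 stood at 0.60 and Aqp1 at 0.64. Epor paired with Car2 (r = 0.95) and Aqp1 (r = 0.95). The arrays share groups and slides, and these values are descriptions. They were not computed without nephritic Cre control replicate 3, the highest array for all members but Gata1 and the bright Ermap probe.

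Ranked by correlation with the members' mean centred profile over the 16 arrays, the 10 most similar genes were Btnl10 (r = 0.95), Aldh1a1 (0.94), Tal1 (0.94), Kel (0.93), Cldn13 (0.93), Rhd (0.93), Cd24a (0.92), Gda (0.92), Cyp4b1-ps2 (0.91) and Trim10 (0.91). Tal1 is a partner of GATA1, and Kel and Rhd are red cell surface proteins, listed with the red cell genes here. Btnl10, Aldh1a1, Cd24a, Gda and Cyp4b1-ps2 were in no list. The members' mean profile was lowest on untreated Cre control replicate 3 (-1.58) and highest on nephritic Cre control replicate 3 (2.996), with the 12 remaining arrays outside the untreated Cre controls and that array between -0.87 and 1.09.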

How the data were processed

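Per the labels' protocols, 0.1 ug of RNA (RNA integrity number at least 8) was Cy3-labelled and hybridised to 1-colour Agilent arrays. Scanner files held the authors' processed intensity per spot, after Feature Extraction's background correction (version 10.7.3.1 per the file headers, 10.5 per the submitters' processing notes). A deposited table held the authors' log2 values of the same 55681 probes, with medians near 5.7, normalization not given in the sources used here.

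Computed here: control and outlier spots were removed, spots of a probe averaged, and log2 intensity centred on each array's 75th percentile. Accessions matched RefSeq symbols (GRCm38.p6) for 27248 of 55681 probes. Genes needed a probe well above background on at least 2 arrays and were represented by the brightest one. limma 3.58.1 (R 4.3.3) fitted 6 group means over 16 arrays, with Benjamini-Hochberg adjustment over 14688 genes, threshold 0.05 and 11 comparisons. The fit was tested on simulated data. The number of arrays limits the precision. Alternatives changed background correction, scaling, filter, probe choice, slide, pairing, samples in the fit and single arrays. Normexp (offset 50) used median signals, which these files give in place of means.

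All probes of the 8 members were named. The calls among B cell markers for nephritis in Cre controls are not reported here. From the other lists, up to 3 genes with the largest called change were named, and the 10 genes most correlated with the members. Genes outside this rule were chosen after their values were seen. Members and lists were chosen with earlier results of these data known.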

Additional observations from a re-analysis of the deposited data

Results flagged for a closer look

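Gata1's arrays lay on opposite sides with nephritis in the knockouts, though neither difference passed. All 3 nephritic IKK2 knockout arrays were above all untreated ones, as for 9.02% of all genes, with a difference of 0.507 (SE 0.19, adjusted p = 0.236, limma). Both nephritic NEMO knockout arrays were below both untreated ones, as for 26.5% of all genes, with a difference of -1.01 (SE 0.23, adjusted p = 0.156, limma). The difference between these responses was not tested.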

How the results depend on the processing

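Counts of called members moved as follows. For nephritis in Cre control, 3 became 1 with normexp correction and with the authors' log2 values, 0 with slide as a block and when only the groups compared were fitted, 1 without nephritic replicate 2 and untreated replicate 1 together, and 1 to 6 when single arrays were left out. Over all 14688 genes the 591 calls became 167, 322, 2, 0 and 63 in that order, and 111 to 842 without single arrays (111 without untreated replicate 1). With only the groups compared, 0 became 2 for untreated IKK2 knockout versus Cre control, and 1 became 6 for untreated NEMO knockout versus Cre control and 2 versus IKK2 knockout. NEMO knockout versus Cre control gave 2 without those arrays, with and without nephritis, 2 with normexp correction under nephritis, and 1 to 2 without single arrays. Leaving out single arrays gave 0 to 1 for nephritis in NEMO knockout and for both response differences (Alas2, -4.28, adjusted p = 0.0477, for IKK2 knockout without nephritic Cre control replicate 1). The cause was not tested. Counts of genes called over all gene-level alternatives ran from 0 to 163 for nephritis in IKK2 knockout (65 reported), 0 to 70 in NEMO knockout (59), 201 to 2458 for untreated IKK2 knockout versus Cre control (2135), 49 to 449 with nephritis (381), 4343 to 6719 and 4807 to 10344 for NEMO knockout versus Cre control (6323 and 7101), 3008 to 5547 and 4601 to 9714 versus IKK2 knockout (5181 and 6774), and 2 to 391 and 0 to 50 for the response differences (167 and 39). No called difference changed sign, and probes near background (Klf1, untreated Aqp1) limit what can be measured. Shared replicate numbers did not pair the arrays (correlations of deviations -0.20 to 0.13, 3 of 36 over 0.1), and the replicate block gave 2 called members and 439 genes for nephritis in Cre control, with Epor's adjusted p at 0.0522.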
